A study of Homo sapiens with 16 samples.

Results

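Collagen and laminin chains were followed across 8 groups of the HT-1080 line, a long-established culture of human fibrosarcoma. The chains were the rows of the deposited expression table whose gene symbol has the form of a collagen chain (COL, a type number, A and a chain number) or a laminin chain (LAMA, LAMB or LAMC and a number). They numbered 56 of 24107 rows, 44 of them collagen chains and 12 laminin chains. Values were present for 55, and 21 reached a mean of 1 FPKM (fragments scaled for transcript length and library size) over the 16 libraries and were tested, 13 collagen and 8 laminin chains. The rule reads gene symbols and no measured difference, although the family was chosen with earlier results of these data known, and the minimum of 1 FPKM means that the tested chains are the expressed ones and not the whole family.

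RNA was measured in 16 libraries, 2 for each of 4 genotypes without and with erastin. Cells had received either an siRNA that served as control (siNS), one directed at DCAF8 (siDCAF8), siRNAs to both DCAF8 and LSH (siDCAF8+siLSH), or overexpressed WDR76 (oeWDR76). Erastin, a small molecule that blocks cystine uptake and can drive cells into ferroptosis, was given at 10 µM for 24 h. DCAF8 recruits substrates to a CRL4 ubiquitin ligase, WDR76 is a WD40 protein with a similar role, and the remodeler LSH, which moves nucleosomes, is the product of HELLS. All groups shared the parental line and medium with serum. The libraries hold no empty-vector control for oeWDR76, whose reference was siNS, and the labels name no promoter, clone or number of siRNAs. Nor do they say whether both libraries of one group stem from different cultures, and p-values therefore rest on a spread between libraries that may be technical. In RNA of a whole culture, a lower level in every cell and fewer cells that hold the RNA cannot be told apart.

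Collagens and laminins are proteins of the extracellular matrix built from 3 chains, and most are secreted, while a few collagens stay in the cell membrane. Collagen chains wind into a triple helix, and their types differ in what they build: fibrils (types I, III and V), the sheet-like network of basement membranes (type IV), beaded microfibrils around cells (type VI), or links at the cell membrane (types XIII and XVII). A laminin joins an alpha, a beta and a gamma chain into a cross-shaped molecule, and laminins with type IV collagen form the basement membrane on which cells sit. HT-1080 cells have long been a source of type IV collagen and laminin in culture.

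The promoters of 3 chains are shown first, a pair of type IV collagen chains that differed between siDCAF8+siLSH and siDCAF8, and LAMA5. COL4A1 and COL4A2 lie head to head on chromosome 13, are transcribed away from each other, and share the short stretch between their starts. The DNA between the RefSeq starts of both genes is 126 bases long (GRCh38.p14, chr13:110307158-110307283, plus strand, which is the sense of COL4A2), and 80.2% of it is G or C. The other stretch is the 250 bases before the start of LAMA5, the chain with the largest fall (GRCh38.p14, chr20:62367313-62367562, minus strand, the sense of LAMA5), with 82.8% G or C. Capitals mark matches on either strand to the motifs searched, and both are written 5′ to 3′.
COL4A1-COL4A2 spacer: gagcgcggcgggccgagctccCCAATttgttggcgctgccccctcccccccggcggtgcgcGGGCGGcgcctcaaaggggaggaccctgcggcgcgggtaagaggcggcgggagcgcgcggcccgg
LAMA5 upstream: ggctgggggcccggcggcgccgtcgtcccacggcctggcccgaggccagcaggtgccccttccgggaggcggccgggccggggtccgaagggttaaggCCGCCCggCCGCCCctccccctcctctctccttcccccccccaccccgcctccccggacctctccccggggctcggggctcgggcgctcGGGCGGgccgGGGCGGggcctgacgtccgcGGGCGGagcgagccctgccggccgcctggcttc
The spacer holds 1 GC box (GGGCGG, or CCGCCC on the other strand) and 1 CCAAT box (CCAAT or ATTGG), and the LAMA5 stretch holds 5 GC boxes and no CCAAT box. A GC box was present in 42.3% of the 250-base upstream stretches of 27305 RefSeq promoters and in 34.6% of stretches of 126 bases, and a CCAAT box in 33% and 21.9%. Of the 18 tested chains with a promoter entry, 13 had a GC box. Neither stretch held TATAAA (11.1% of the longer and 6.23% of the shorter stretches), TGANTCA (6.6% and 3.47%), TGACGTCA (1.77% and 1.43%) or CACGTG (6.49% and 4.09%), searched on both strands. The median promoter was 58% G or C. A match describes letters and not binding.

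The chains spanned from over 300 FPKM to values listed at 0. LAMB3, a beta chain of laminin-332, was the most abundant with a mean of 316 FPKM over the 16 libraries, followed by the type VI chains COL6A3 (168 FPKM), COL6A1 (92.2 FPKM) and COL6A2 (88.8 FPKM). COL4A2 (69.0 FPKM), LAMC1 (64.9 FPKM), COL4A1 (30.9 FPKM), LAMB2 (30.5 FPKM), COL13A1 (29.8 FPKM) and LAMB1 (14.8 FPKM) lay below these. The collagens summed to between 326 and 693 FPKM per library, lowest in the 4 oeWDR76 libraries, and the laminins to between 373 and 624 FPKM, lowest in siDCAF8 and siDCAF8+siLSH without erastin, whose libraries overlapped (373 to 415.5 and 377 to 409 FPKM). Laminin beta chains summed to 244 to 453 FPKM, while alpha chains, of which each laminin also needs 1, summed to only 3.47 to 10.2 FPKM. All of these are RNA levels per length, and protein was not measured.

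The major fibril chains of connective tissue were close to absent. COL1A1, a chain of type I collagen, averaged 0.95 FPKM and COL1A2, its partner, 0.27 FPKM, while COL3A1 was at 0.014 FPKM and COL5A2 at 0.076 FPKM. COL11A2 (0.42 FPKM, listed on an alternative scaffold), COL24A1 (0.026 FPKM), COL2A1 (0.011 FPKM), COL5A3 (0.0081 FPKM) and COL11A1 (0.0075 FPKM) completed the untested fibril-forming chains. The multiplexins COL15A1 (0.71 FPKM) and COL18A1 (0.58 FPKM) and the short network chains COL8A1 (0.49 FPKM), COL8A2 (0.32 FPKM) and COL10A1 (0.044 FPKM) also fell under 1 FPKM. So did the FACIT chains, which decorate fibrils, other than COL9A2 and COL16A1: COL9A3 (0.11 FPKM), COL14A1 (0.048 FPKM), COL12A1 (0.038 FPKM), COL21A1 (0.0081 FPKM), COL20A1 and COL22A1 (0.0013 FPKM each) and COL19A1 (0.00063 FPKM), with no values for COL9A1. The type IV chains COL4A3 (0.013 FPKM), COL4A6 (0.0069 FPKM) and COL4A4 (0.00063 FPKM), the type VI chains COL6A6 (0.097 FPKM) and COL6A5 (0.023 FPKM), the membrane chains COL23A1 (0.0063 FPKM) and COL25A1 (0.0031 FPKM), and COL26A1 (0.036 FPKM) and COL28A1 (0.016 FPKM) were likewise untested. Among the laminins these were LAMB4 (0.49 FPKM), LAMA3 (0.47 FPKM), LAMA2 (0.10 FPKM) and LAMC3 (0.058 FPKM). In all, 34 chains with values were untested, 23 of them under 0.1 FPKM. COL1A1 (0.95 FPKM) lay just under the minimum, and COL7A1 (1.05 FPKM) and COL16A1 (1.09 FPKM) lay just over it. The files give no read counts, so the depth behind these values is unknown.

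Mesenchymal markers fit the label of the line in part: VIM stood at 1273 to 2067 FPKM, and 5 of 7 markers reached 1 FPKM, but THY1 and PRRX1 were near 0. Epithelial markers summed to at most 5.9 FPKM, most of it CLDN4, and EPCAM and KRT5 were near 0. Endothelial, leukocyte, muscle and cartilage or bone markers summed to at most 4.79, 4.49, 3.13 and 14.7 FPKM. Some of these low sums moved with the groups without erastin. Endothelial markers were at 4.74 to 4.79 FPKM in siNS and 1.87 to 2.74 in the other genotypes, with KDR near 0 throughout. Most of that fall was in PECAM1 (2.99 to 3.16 FPKM in siNS) and CDH5 (0.85 to 1.05). VWF was instead higher in oeWDR76, at 0.68 to 0.83 FPKM against 0.31 to 0.34 in siNS. Muscle markers, nearly all DES, were at 2.91 to 3.13 FPKM in siNS and 0.22 to 1.14 in the others. PDGFRB, a receptor of mesenchymal cells, was at 7.57 to 8.39 FPKM in siNS and 1.74 to 3.42 in the others. CD44 was also lower in the others, but the mesenchymal markers did not fall together. S100A4 was at 29.68 to 32.96 FPKM in siNS, 38.44 to 39.53 in siDCAF8, 42.98 to 44.22 in oeWDR76 and 18.97 to 24.62 in siDCAF8+siLSH. TWIST1 was at 6.33 to 6.53 FPKM in siNS and 9.3 to 11.56 in oeWDR76, and VIM was not lower in oeWDR76 than in siNS. Cartilage and bone markers, nearly all SOX9, were at 14.67 to 14.73 FPKM in siDCAF8, 9.77 to 11.22 in siDCAF8+siLSH, 7.78 to 7.9 in oeWDR76 and 6.34 to 6.44 in siNS. Epithelial markers were at 5.55 to 5.66 FPKM in oeWDR76, 4.59 to 5.37 in siDCAF8, 1.28 to 1.68 in siDCAF8+siLSH and 3.89 to 4.15 in siNS. Their part in the differences from siNS, such as those of LAMA5, COL6A1, COL27A1 and COL17A1, was not tested. DCAF8 was 39.7 ± 1.1 FPKM (SD, n = 2) in siNS, 12 ± 0.30 in siDCAF8, 15.8 ± 2.2 in siDCAF8+siLSH and 31.9 ± 1.4 in oeWDR76, all without erastin. HELLS was 4.02 ± 0.05 FPKM in siNS, 7.14 ± 0.44 in siDCAF8, 4.06 ± 0.01 in siDCAF8+siLSH and 10.9 ± 0.54 in oeWDR76, and with erastin it was 3.49 ± 0.16 in siNS and 2.24 ± 0.17 in siDCAF8+siLSH. The RNA of LSH in siDCAF8+siLSH was thus lower than in siDCAF8 without erastin (-0.69) and with it (-1.09), and lower than in siNS only with erastin (-0.47, adjusted p = 2.14e-05, against 0.013 and adjusted p = 0.884 without). DCAF8 RNA was also called higher in siDCAF8+siLSH than in siDCAF8, by 0.365 without erastin (limma, adjusted p = 0.00156) and 0.541 with it (adjusted p = 4.54e-05). Those genotypes thus differed in DCAF8 as well as in LSH, and the part of either in the differences between them was not tested. WDR76 was 268 ± 0.45 FPKM in oeWDR76 and 3.21 ± 0.45 in siNS. Replicates correlated at 0.996 to 0.997 across genes. Levels in the 4 oeWDR76 libraries, taken relative to each gene's mean, rose with the GC content of the transcript by 0.185 to 0.230 log2 per 10% GC, against -0.155 to 0.029 in the other 12. Among these 12 the slope also differed by group. It was -0.043 and 0.015 in siNS and -0.033 and -0.096 in siNS/Erastin. In siDCAF8 it was 0.029 and -0.025, and in siDCAF8/Erastin -0.136 and -0.139. In siDCAF8+siLSH it was -0.110 and -0.155, and in siDCAF8+siLSH/Erastin -0.052 and -0.063. The tested chains had a median GC content of 58.9%, above the 48.7% of all tested genes. Values under a correction for GC content and transcript length are therefore given where they end a printed call of a chain. DCAF8, HELLS, WDR76 and the partner genes below are given from the main fit only.

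**Figure D1:**
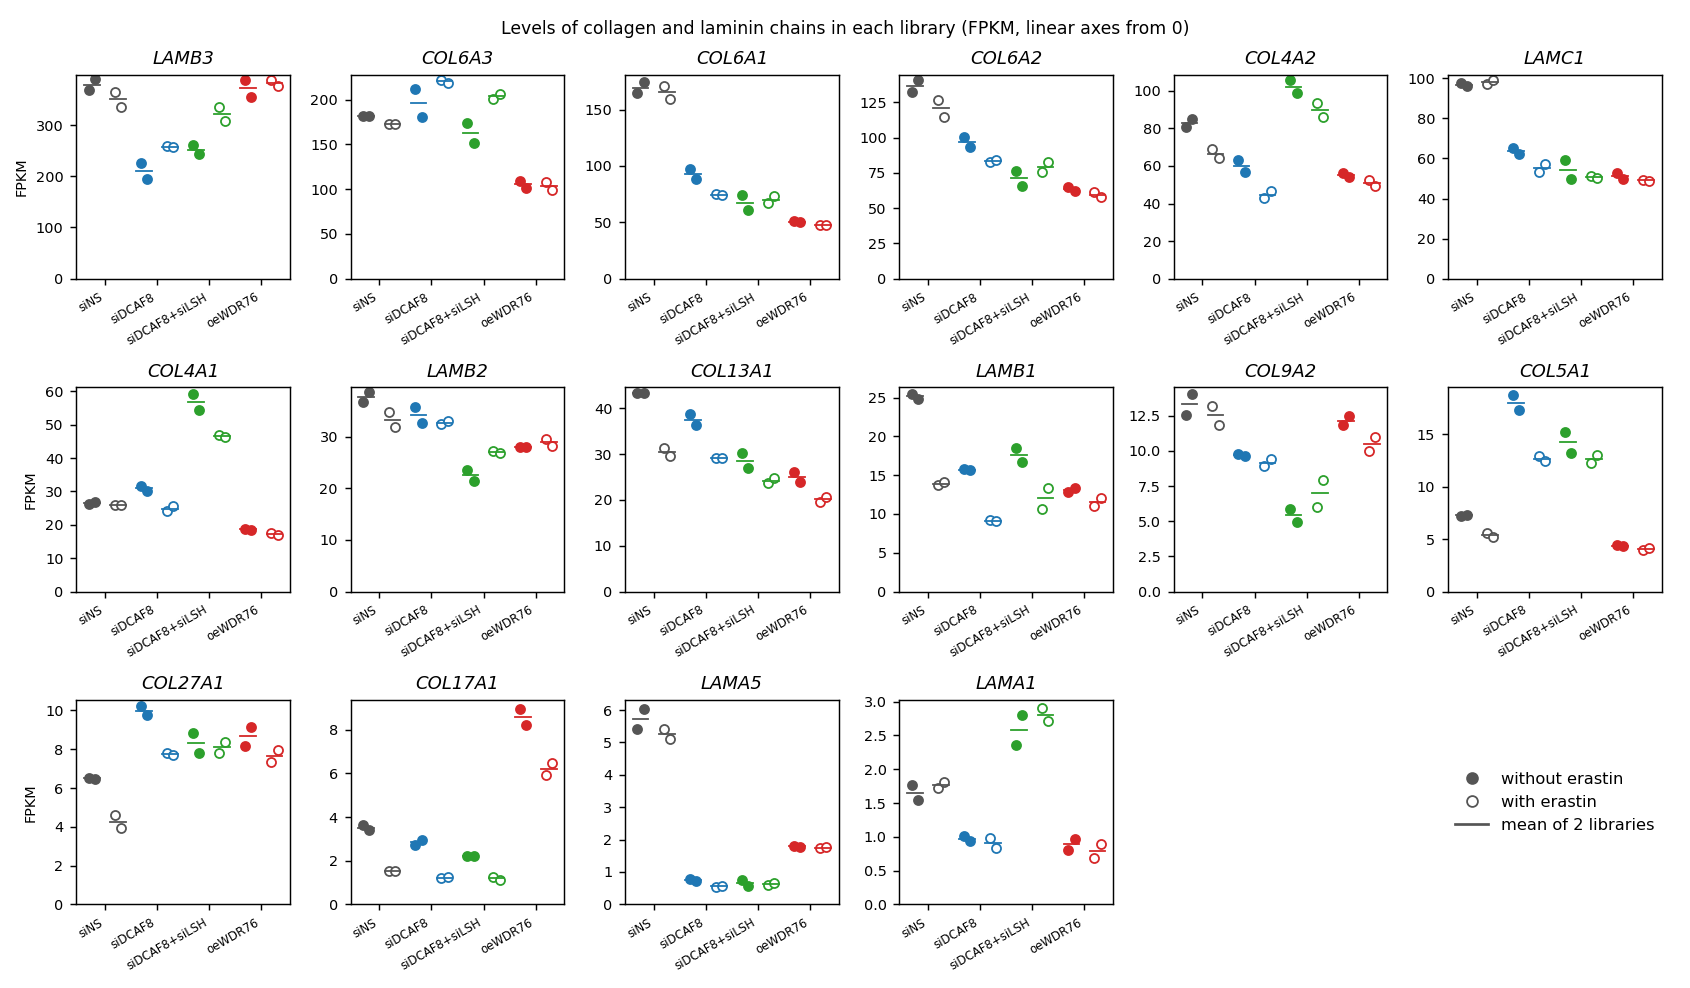
FPKM (linear axes from 0) of 16 chains in every library, by genotype along the x axis, with filled points without erastin, open points with erastin and a line at the mean of 2 libraries. LAMA5 is highest in siNS, COL4A1 in siDCAF8+siLSH and COL17A1 in oeWDR76.

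Comparisons below are differences of log2(FPKM + 1) between group means, given ± the standard error of a limma fit over 11260 genes, with p-values adjusted by Benjamini-Hochberg over all genes of a comparison and called under 0.05. A fold is on the FPKM + 1 scale and understates the change of low genes. Comparisons that share siNS share those libraries, so their values stand side by side and are not independent.

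Of the fibril-forming chains, COL5A1 and COL27A1 were tested, and both rose in the 2 siRNA genotypes while oeWDR76 lowered COL5A1 and raised COL27A1. COL5A1 (chr9:134641805-134844843) encodes the main chain of type V collagen, which starts and regulates fibrils of type I collagen. Without erastin it was at 7.22 and 7.34 FPKM in siNS, 18.8 and 17.3 in siDCAF8, 15.3 and 13.2 in siDCAF8+siLSH, and 4.45 and 4.33 in oeWDR76. With erastin it was at 5.55 and 5.18 FPKM in siNS, 12.9 and 12.4 in siDCAF8, 12.2 and 13 in siDCAF8+siLSH, and 3.99 and 4.12 in oeWDR76. Every siDCAF8 and siDCAF8+siLSH library lay above every siNS library, and every oeWDR76 library below. COL5A1 rose by 1.20 ± 0.073 in siDCAF8 against siNS (adjusted p = 1.08e-09, 2.3-fold). In siDCAF8+siLSH it rose by 0.88 ± 0.073 (adjusted p = 2.26e-08). The change was -0.62 ± 0.073 in oeWDR76 (adjusted p = 7.9e-07). With erastin the 3 differences were 1.11, 1.10 and -0.33, each called. COL27A1 (chr9:114155545-114312516) encodes a fibrillar chain known from cartilage. Untreated cells had 6.52 and 6.49 FPKM in siNS, 10.2 and 9.77 in siDCAF8, 8.82 and 7.83 in siDCAF8+siLSH, and 8.18 and 9.14 in oeWDR76. Under erastin the values were 4.61 and 3.92 FPKM in siNS, 7.81 and 7.71 in siDCAF8, 7.81 and 8.37 in siDCAF8+siLSH, and 7.35 and 7.96 in oeWDR76. All 12 libraries of the other genotypes exceeded the siNS libraries of the same treatment. The rise against siNS was 0.55 ± 0.081 in siDCAF8, 0.31 ± 0.081 in siDCAF8+siLSH and 0.36 ± 0.081 in oeWDR76, and with erastin 0.74, 0.79 and 0.72. Between siDCAF8+siLSH and siDCAF8 without erastin, COL5A1 differed by -0.32 and COL27A1 by -0.24. Both calls were lost with the correction for GC content and length, at -0.076 and 0.017.

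Type IV collagen separated siDCAF8+siLSH from siDCAF8. COL4A1 (chr13:110148958-110307157) and COL4A2 (chr13:110307267-110513508 in the authors' table) encode the chains of the common type IV trimer, which takes up 2 COL4A1 chains and 1 COL4A2 chain. COL4A1 without erastin was at 26.2 and 26.8 FPKM in siNS, 31.6 and 30.2 in siDCAF8, 59.1 and 54.5 in siDCAF8+siLSH, and 18.8 and 18.5 in oeWDR76. Its values with erastin were 26 and 25.9 FPKM in siNS, 24 and 25.6 in siDCAF8, 47 and 46.3 in siDCAF8+siLSH, and 17.6 and 16.9 in oeWDR76. The siDCAF8+siLSH libraries were the highest and the oeWDR76 libraries the lowest, with no overlap with any other genotype. COL4A2 was at 81 and 85 FPKM in siNS, 62.9 and 56.6 in siDCAF8, 106 and 98.7 in siDCAF8+siLSH, and 56.5 and 54.2 in oeWDR76 without erastin. It was at 69.2 and 64.1 FPKM in siNS, 42.7 and 46.5 in siDCAF8, 93.3 and 85.8 in siDCAF8+siLSH, and 52.7 and 49.6 in oeWDR76 with erastin. Here siDCAF8+siLSH was again highest at each treatment, but siDCAF8 fell below siNS. Against siDCAF8, siDCAF8+siLSH raised COL4A1 by 0.86 ± 0.057 (adjusted p = 2.57e-08, 1.81-fold) and COL4A2 by 0.76 ± 0.068 (adjusted p = 3.85e-07). With erastin these were 0.88 ± 0.057 and 0.99 ± 0.068 (adjusted p = 9.64e-09 and 1.8e-08).

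Against siNS the type IV chains parted. COL4A1 rose by 0.21 ± 0.057 in siDCAF8 (adjusted p = 0.00359), while COL4A2, on the other side of the shared spacer, fell by 0.47 ± 0.068 (adjusted p = 1.76e-05). In siDCAF8+siLSH both rose, COL4A1 by 1.07 ± 0.057 and COL4A2 by 0.30 ± 0.068 (adjusted p = 1.25e-10 and 0.00109). In oeWDR76 the differences were -0.48 ± 0.057 and -0.57 ± 0.068 without erastin and -0.56 and -0.37 with it, all called. The ratio of COL4A2 to COL4A1, in FPKM, was 3.13 ± 0.06 (SD, n = 2) in siNS and 2.97 ± 0.05 in oeWDR76, against 1.93 ± 0.09 in siDCAF8 and 1.80 ± 0.02 in siDCAF8+siLSH. With erastin it was 2.57 ± 0.13 in siNS, 2.97 ± 0.05 in oeWDR76, 1.80 ± 0.03 in siDCAF8 and 1.92 ± 0.09 in siDCAF8+siLSH, so the 2 siRNA genotypes stayed under 2 in all 8 libraries. These ratios carry no test. COL4A2 overlaps exons of the antisense genes COL4A2-AS1 and COL4A2-AS2, and the sources used here do not say whether strand entered the quantification. COL4A5 (chrX:108439844-108697545), a chain of the kidney and eye type IV network, lay between 0.53 and 2.48 FPKM. It changed by -0.70 in oeWDR76 and 0.26 in siDCAF8 against siNS, but the siDCAF8 call was lost with no filter, a pseudocount of 0.1 or the GC and length correction (adjusted p = 0.0507 to 0.0979), and without siDCAF8 replicate 2 (adjusted p = 0.312) or either untreated siNS library (0.0674 and 0.193).

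**Figure D2:**
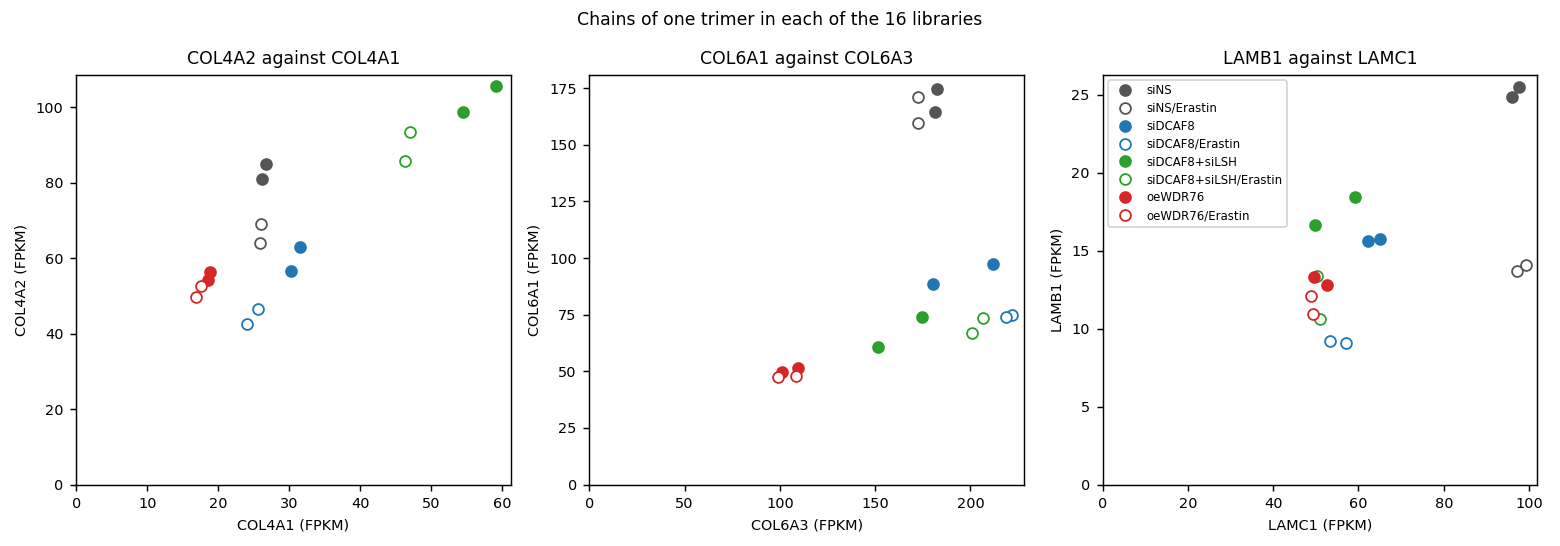
Each point is 1 of the 16 libraries, with the FPKM of 2 chains that can join in 1 molecule on linear axes from 0: COL4A2 against COL4A1, COL6A1 against COL6A3, and LAMB1 against LAMC1. The siNS libraries stand alone in the middle panel, where their COL6A1 is 159.5 to 175 FPKM, and the siDCAF8+siLSH libraries lie farthest right in the first.

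The 3 expressed type VI chains did not move together. COL6A1, COL6A2 and COL6A3 combine in equal numbers into the type VI monomer, which surrounds mesenchymal cells with beaded microfibrils. COL6A1 (chr21:45981749-46005049) was at 164 and 175 FPKM in siNS, 97.5 and 88.4 in siDCAF8, 74.2 and 60.7 in siDCAF8+siLSH, and 51.2 and 49.8 in oeWDR76 without erastin. With erastin the libraries held 171 and 159.5 FPKM in siNS, 75 and 74 in siDCAF8, 66.9 and 73.4 in siDCAF8+siLSH, and 47.8 and 47.5 in oeWDR76. Each siNS library had more COL6A1 than any other library. COL6A2 (chr21:46098119-46132849) without erastin was at 132 and 141 FPKM in siNS, 101 and 93.1 in siDCAF8, 76 and 66 in siDCAF8+siLSH, and 64.7 and 62.5 in oeWDR76. Erastin-treated cells had 127 and 115 FPKM in siNS, 82.3 and 84.3 in siDCAF8, 75.7 and 82.5 in siDCAF8+siLSH, and 61.4 and 57.6 in oeWDR76. The order was the same, siNS first and oeWDR76 last, with smaller gaps. COL6A3 (chr2:237324012-237414207), which has no neighbour among the other 2 on chromosome 21, was at 181 and 182 FPKM in siNS, 212 and 180.1 in siDCAF8, 174 and 152 in siDCAF8+siLSH, and 109 and 101 in oeWDR76. With erastin it was at 172 and 172 FPKM in siNS, 222 and 219 in siDCAF8, 201 and 206 in siDCAF8+siLSH, and 108 and 99 in oeWDR76. Without erastin the siDCAF8 values fell on both sides of siNS, siDCAF8+siLSH lay just below it and oeWDR76 far below.

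Against siNS, COL6A1 fell by 1.73 ± 0.078 in oeWDR76 (adjusted p = 7.5e-12, 3.31-fold). The difference was -1.32 ± 0.078 in siDCAF8+siLSH (adjusted p = 4.55e-10) and -0.86 ± 0.078 in siDCAF8 (adjusted p = 9.75e-08). COL6A2 was also called lower in these genotypes, at -1.09 ± 0.072, -0.94 ± 0.072 and -0.49 ± 0.072, and COL6A3 fell by 0.78 ± 0.074 in oeWDR76 (adjusted p = 6.18e-08). COL6A3 differed from siNS by 0.10 in siDCAF8 and -0.16 in siDCAF8+siLSH, neither called (adjusted p = 0.24 and 0.0686). With erastin COL6A1 differed from siNS by -1.77, -1.23 and -1.14, COL6A2 by -1.01, -0.60 and -0.53, and COL6A3 by -0.73, 0.24 and 0.35, each called. The COL6A3 call in siDCAF8+siLSH with erastin was lost with median-ratio scaling (0.15, adjusted p = 0.0874). The ratio of COL6A1 to COL6A3 was 0.93 ± 0.04 (SD, n = 2) in siNS, 0.48 ± 0.02 in siDCAF8, 0.41 ± 0.02 in siDCAF8+siLSH and 0.48 ± 0.02 in oeWDR76. Correcting for GC content and length gave COL6A1 differences of -1.94 in oeWDR76, -1.15 in siDCAF8+siLSH and -0.92 in siDCAF8. Against siDCAF8, siDCAF8+siLSH without erastin was lower, with differences of -0.46 ± 0.078 for COL6A1, -0.45 ± 0.072 for COL6A2 and -0.26 ± 0.074 for COL6A3, and the COL6A3 call was lost with that correction (-0.10, adjusted p = 0.129).

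Of the remaining collagens, COL9A2 was lowest in siDCAF8+siLSH and COL17A1 highest in oeWDR76. COL9A2 (chr1:40300491-40317267) encodes a chain of type IX collagen, which coats cartilage fibrils. Untreated levels of COL9A2 were 12.6 and 14.1 FPKM in siNS, 9.78 and 9.65 in siDCAF8, 5.9 and 4.93 in siDCAF8+siLSH, and 11.8 and 12.5 in oeWDR76. Levels with erastin were 13.2 and 11.9 FPKM in siNS, 8.9 and 9.43 in siDCAF8, 6.01 and 7.94 in siDCAF8+siLSH, and 9.99 and 11 in oeWDR76. All siDCAF8+siLSH libraries were below all others. The difference was -1.16 ± 0.10 against siNS (adjusted p = 4.68e-08, 2.23-fold) and -0.74 ± 0.10 against siDCAF8 (adjusted p = 2.34e-05), and with erastin -0.77 ± 0.10 and -0.36 ± 0.10. In siDCAF8 it differed from siNS by -0.41 without and -0.41 with erastin, both called. COL16A1 (chr1:31652247-31704167), another fibril-associated chain, ran from 0.54 to 1.61 FPKM and fell by 0.44 in oeWDR76. COL7A1 (chr3:48564073-48595160), which forms the anchoring fibrils beneath epithelia, ran from 0.6 to 1.53 FPKM and rose against siNS by 0.38 in siDCAF8 and 0.34 in oeWDR76, though the first call was lost with the GC and length correction (0.27, adjusted p = 0.0649) or without siDCAF8 replicate 2 (0.28, adjusted p = 0.0665), and the second without oeWDR76 replicate 2 (0.26, adjusted p = 0.0814).

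Both expressed transmembrane collagens were lower with erastin in each genotype. COL13A1 (chr10:69801888-69959148) encodes a membrane collagen of cell contacts and of the nerve-muscle junction. Without erastin COL13A1 was at 43.3 and 43.4 FPKM in siNS, 38.7 and 36.4 in siDCAF8, 30.2 and 26.9 in siDCAF8+siLSH, and 26.1 and 23.8 in oeWDR76. With erastin it was at 31.3 and 29.7 FPKM in siNS, 29.1 and 29 in siDCAF8, 23.6 and 24.7 in siDCAF8+siLSH, and 19.6 and 20.6 in oeWDR76. It stepped down from siNS to oeWDR76 at both treatments, and in each genotype the erastin libraries were below the untreated ones. Its differences from siNS were -0.77 ± 0.065 in oeWDR76, -0.59 ± 0.065 in siDCAF8+siLSH and -0.20 ± 0.065 in siDCAF8 (adjusted p = 1.45e-08, 6.5e-07 and 0.0128). The call in siDCAF8 was lost without siDCAF8 replicate 2 (-0.16, adjusted p = 0.103) or siNS replicate 1 or 2 (adjusted p = 0.0505 and 0.0528). COL17A1 (chr10:104031288-104085880) encodes the hemidesmosome collagen of epithelial cells that binds laminin-332. COL17A1 was at 3.63 and 3.4 FPKM in siNS, 2.73 and 2.95 in siDCAF8, 2.2 and 2.23 in siDCAF8+siLSH, and 8.96 and 8.24 in oeWDR76 in untreated cells. In treated cells it was at 1.55 and 1.54 FPKM in siNS, 1.22 and 1.24 in siDCAF8, 1.27 and 1.11 in siDCAF8+siLSH, and 5.92 and 6.46 in oeWDR76. The 4 oeWDR76 libraries were the only ones above 5 FPKM. COL17A1 rose in oeWDR76 by 1.09 ± 0.081 (adjusted p = 3.14e-09, 2.13-fold), and with erastin by 1.5 ± 0.081 (adjusted p = 5.6e-11, 2.82-fold). The differences were 1.08 and 1.48 with the GC and length correction. In siDCAF8+siLSH it fell by 0.49 ± 0.081 (adjusted p = 5.04e-05).

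The laminin alpha chains, which set where a laminin binds on cells, showed the largest fall of the family. LAMA5 (chr20:62309060-62367312) encodes the alpha chain of laminin-511 and laminin-521, the common laminins of adult basement membranes. Its untreated levels were 5.43 and 6.03 FPKM in siNS, 0.79 and 0.72 in siDCAF8, 0.75 and 0.58 in siDCAF8+siLSH, and 1.8 and 1.78 in oeWDR76. Its levels with erastin were 5.41 and 5.12 FPKM in siNS, 0.55 and 0.56 in siDCAF8, 0.6 and 0.67 in siDCAF8+siLSH, and 1.73 and 1.76 in oeWDR76. No siNS library was under 5 FPKM, no oeWDR76 library was above 1.8, and no siDCAF8 or siDCAF8+siLSH library reached 0.8. LAMA5 fell by 1.94 ± 0.089 in siDCAF8 (adjusted p = 6.33e-11, 3.83-fold). It differed from siNS by -2.02 ± 0.089 in siDCAF8+siLSH (adjusted p = 1.99e-11) and -1.27 ± 0.089 in oeWDR76 (adjusted p = 1.57e-09). With erastin the differences were -2.01, -1.94 and -1.19. With a pseudocount of 0.1 in place of 1 the untreated folds became 6.82, 7.66 and 3.08. Between siDCAF8+siLSH and siDCAF8 the difference was -0.077 without erastin and 0.072 with it, neither called (adjusted p = 0.495 and 0.524). LAMA5 overlaps exons of the antisense gene LAMA5-AS1. Exons of genes on the opposite strand also overlap LAMA1 (AP002409.1 and AP005062.1), LAMA4 (Z99289.1) and COL16A1 (AC114488.2). Whether strand entered the quantification is unknown for these chains too.

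LAMA1 and LAMA4 were higher in siDCAF8+siLSH than in siDCAF8. LAMA1 (chr18:6941744-7117814) encodes the alpha chain of the embryonic laminin-111. It was at 1.76 and 1.55 FPKM in siNS, 1.01 and 0.94 in siDCAF8, 2.36 and 2.81 in siDCAF8+siLSH, and 0.81 and 0.97 in oeWDR76 without erastin. It was at 1.72 and 1.81 FPKM in siNS, 0.98 and 0.83 in siDCAF8, 2.91 and 2.71 in siDCAF8+siLSH, and 0.68 and 0.89 in oeWDR76 with erastin. Its 4 siDCAF8+siLSH libraries were the highest, and siDCAF8 and oeWDR76 lay below siNS. LAMA1 rose by 0.86 ± 0.10 against siDCAF8 (adjusted p = 5.3e-06, 1.81-fold) and by 1.0 ± 0.10 with erastin (adjusted p = 7.46e-07). Against siNS it differed by 0.43 in siDCAF8+siLSH, -0.43 in siDCAF8 and -0.49 in oeWDR76, and the last call was lost with the GC and length correction (-0.25, adjusted p = 0.055). LAMA4 (chr6:112107931-112254715), the alpha chain of laminins of blood vessels and fat, ran from 1.44 to 3.45 FPKM. It fell by 0.32 ± 0.093 in siDCAF8 against siNS and rose by 0.39 ± 0.093 in siDCAF8+siLSH and 0.43 ± 0.093 in oeWDR76, and by 0.71 ± 0.093 in siDCAF8+siLSH against siDCAF8. The fall in siDCAF8 was lost with quantile normalization (-0.22, adjusted p = 0.0513). In siNS, LAMA5 stood 2.73 ± 0.18 times as high as LAMA4 in FPKM (SD, n = 2), against 0.51 ± 0.06 in siDCAF8, 0.22 ± 0.05 in siDCAF8+siLSH and 0.56 ± 0.02 in oeWDR76. LAMA3, the alpha partner of LAMB3, stayed at 0.12 to 1.0 FPKM.

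Among the beta chains, LAMB3 fell with siDCAF8 and LAMB1 in all 3 genotypes without erastin. LAMB3 (chr1:209614870-209652475) without erastin was at 368 and 389 FPKM in siNS, 226 and 195 in siDCAF8, 260.5 and 244 in siDCAF8+siLSH, and 388 and 355 in oeWDR76. Its values with erastin were 365 and 336 FPKM in siNS, 258 and 258 in siDCAF8, 335 and 308 in siDCAF8+siLSH, and 388 and 376 in oeWDR76. The siDCAF8 libraries were lowest at each treatment, and the oeWDR76 and siNS libraries overlapped without erastin. LAMB3 fell by 0.85 ± 0.070 in siDCAF8 (adjusted p = 3.2e-08, 1.8-fold). The difference from siNS was -0.58 ± 0.070 in siDCAF8+siLSH (adjusted p = 1.45e-06) and -0.44 ± 0.070 in siDCAF8 with erastin. In oeWDR76 the difference was -0.026 without erastin and was not called (adjusted p = 0.745). In siDCAF8+siLSH, LAMB3 was higher than in siDCAF8 by 0.26 ± 0.070 without and 0.31 ± 0.070 with erastin. The first call was lost without siDCAF8 replicate 2 (0.16, adjusted p = 0.0989). LAMB2 (chr3:49121114-49133166), the beta chain of muscle and kidney laminins, was at 36.7 and 38.7 FPKM in siNS, 35.8 and 32.6 in siDCAF8, 23.6 and 21.4 in siDCAF8+siLSH, and 27.9 and 27.9 in oeWDR76. Treated libraries had 34.7 and 31.9 FPKM in siNS, 32.3 and 32.9 in siDCAF8, 27.2 and 26.9 in siDCAF8+siLSH, and 29.6 and 28.1 in oeWDR76. It was lowest in untreated siDCAF8+siLSH, at -0.72 ± 0.064 against siNS (adjusted p = 5.11e-08) and -0.58 ± 0.064 against siDCAF8. In oeWDR76 it fell by 0.42 ± 0.064. LAMB1 (chr7:107923801-108003359), the common beta chain of laminin-111 and laminin-511, was at 25.5 and 24.9 FPKM in siNS, 15.8 and 15.6 in siDCAF8, 18.4 and 16.7 in siDCAF8+siLSH, and 12.8 and 13.3 in oeWDR76. With erastin LAMB1 was at 13.7 and 14.1 FPKM in siNS, 9.2 and 9.07 in siDCAF8, 10.6 and 13.4 in siDCAF8+siLSH, and 11 and 12.1 in oeWDR76. The untreated siNS libraries were above all others. The differences from siNS were -0.90 ± 0.083 in oeWDR76, -0.65 ± 0.083 in siDCAF8 and -0.50 ± 0.083 in siDCAF8+siLSH (adjusted p = 4.4e-08, 4.14e-06 and 5.24e-05).

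The gamma chain LAMC1 was lower in all 3 genotypes than in siNS. LAMC1 (chr1:183023460-183145592), the gamma chain of most laminins, was at 97.6 and 96 FPKM in siNS, 65.1 and 62.3 in siDCAF8, 59.2 and 49.8 in siDCAF8+siLSH, and 52.7 and 49.6 in oeWDR76. It was at 97.1 and 99.4 FPKM in siNS, 53.2 and 57.1 in siDCAF8, 51 and 50.3 in siDCAF8+siLSH, and 49.4 and 48.9 in oeWDR76 after erastin. All siNS libraries were above 95 FPKM and all others at or below 65.1 FPKM. The difference from siNS was -0.91 ± 0.067 in oeWDR76, -0.82 ± 0.067 in siDCAF8+siLSH and -0.60 ± 0.067 in siDCAF8 (adjusted p = 3.05e-09, 1.98e-08 and 1.12e-06), and -0.98, -0.94 and -0.82 with erastin. The ratio of LAMC1 to LAMB1, in FPKM, was 3.85 ± 0.03 (SD, n = 2) in siNS, 4.06 ± 0.10 in siDCAF8, 3.10 ± 0.16 in siDCAF8+siLSH and 3.92 ± 0.28 in oeWDR76 without erastin. With erastin it was 7.06 ± 0.03 in siNS, 6.04 ± 0.36 in siDCAF8, 4.28 ± 0.73 in siDCAF8+siLSH and 4.27 ± 0.32 in oeWDR76, and these ratios carry no test.

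In each of the 4 genotype comparisons without erastin more of the 21 tested chains fell than rose, while among all genes tested more rose than fell. Of all called genes 48.4% to 50.4% were higher with median-ratio scaling, and 49.7% to 52.7% with the correction for GC content and length. In siDCAF8 against siNS, 5 chains rose and 12 fell, against 31% of all tested genes that rose and 29.9% that fell, and with the correction for GC content and length 3 chains rose and 13 fell. The rises were all collagens, COL5A1, COL27A1, COL7A1, COL4A5 and COL4A1. In oeWDR76 against siNS, 4 rose and 15 fell (all genes 41.6% and 32%), the rises being COL17A1, LAMA4, COL27A1 and COL7A1. In siDCAF8+siLSH against siNS, 6 rose and 11 fell (all genes 35.9% and 30.9%), and the rises were COL4A1, COL5A1, LAMA1, LAMA4, COL27A1 and COL4A2. Against siDCAF8, siDCAF8+siLSH had 5 chains higher and 12 lower (all genes 26.4% and 21.7%), and with the GC and length correction 6 higher and 7 lower. The median difference of the 21 chains was -0.23, -0.57, -0.49 and -0.24 in these 4 comparisons, and that of all genes 0.0086, 0.07, 0.029 and 0.027.

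With erastin present, more chains fell than rose against siNS in siDCAF8 and oeWDR76, while in siDCAF8+siLSH rises and falls were equal in number. In siDCAF8 against siNS, 5 chains rose and 10 fell (all genes 34.8% and 30%), and in oeWDR76 against siNS 4 rose and 15 fell (all genes 45.2% and 31%). In siDCAF8+siLSH against siNS, 10 rose and 10 fell (all genes 39.3% and 26.7%), leaving LAMB3 alone uncalled. With no filter on level, 18 of 55 chains rose and 9 fell there (4710 and 3203 of all 17552 genes). With median-ratio scaling 9 and 11 of the 21 did (all genes 3590 and 3726), and with the GC and length correction 10 and 11 (all genes 4000 and 3700). Against siDCAF8 it had 6 chains higher and 4 lower of 21 (all genes 30.4% and 19.3%), so both counts are near the background. LAMA1, COL4A2, COL4A1, LAMB1, LAMA4 and LAMB3 were higher, and COL9A2, COL13A1 and LAMB2 were among the lower. With the GC and length correction 6 were higher and 6 lower (all genes 2863 and 2785). Of all called genes 59.5% were higher in siDCAF8+siLSH against siNS and 61.1% against siDCAF8, and with median-ratio scaling 49.1% and 49.5%. Values not yet given were 0.35 for LAMB1, 0.33 for LAMA4, -0.26 for LAMB2 and -0.26 for COL13A1. The LAMB1 call was lost without siDCAF8+siLSH/Erastin replicate 2 (adjusted p = 0.0584), and the COL9A2 and LAMA4 calls without replicate 1 of that group (adjusted p = 0.172 and 0.118). Against siNS with erastin, siDCAF8 gave -0.56 for LAMB1, -0.54 for LAMA1 and 0.50 for COL7A1, oeWDR76 gave -0.63 for LAMA1 and -0.57 for COL13A1, and siDCAF8+siLSH gave 0.48 for COL4A5. The chains' medians were -0.066, -0.37, -0.12 and -0.0077, beside 0.03, 0.11, 0.071 and 0.056 for all genes. Whether the counts without and with erastin differ was not tested.

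**Figure D3:**
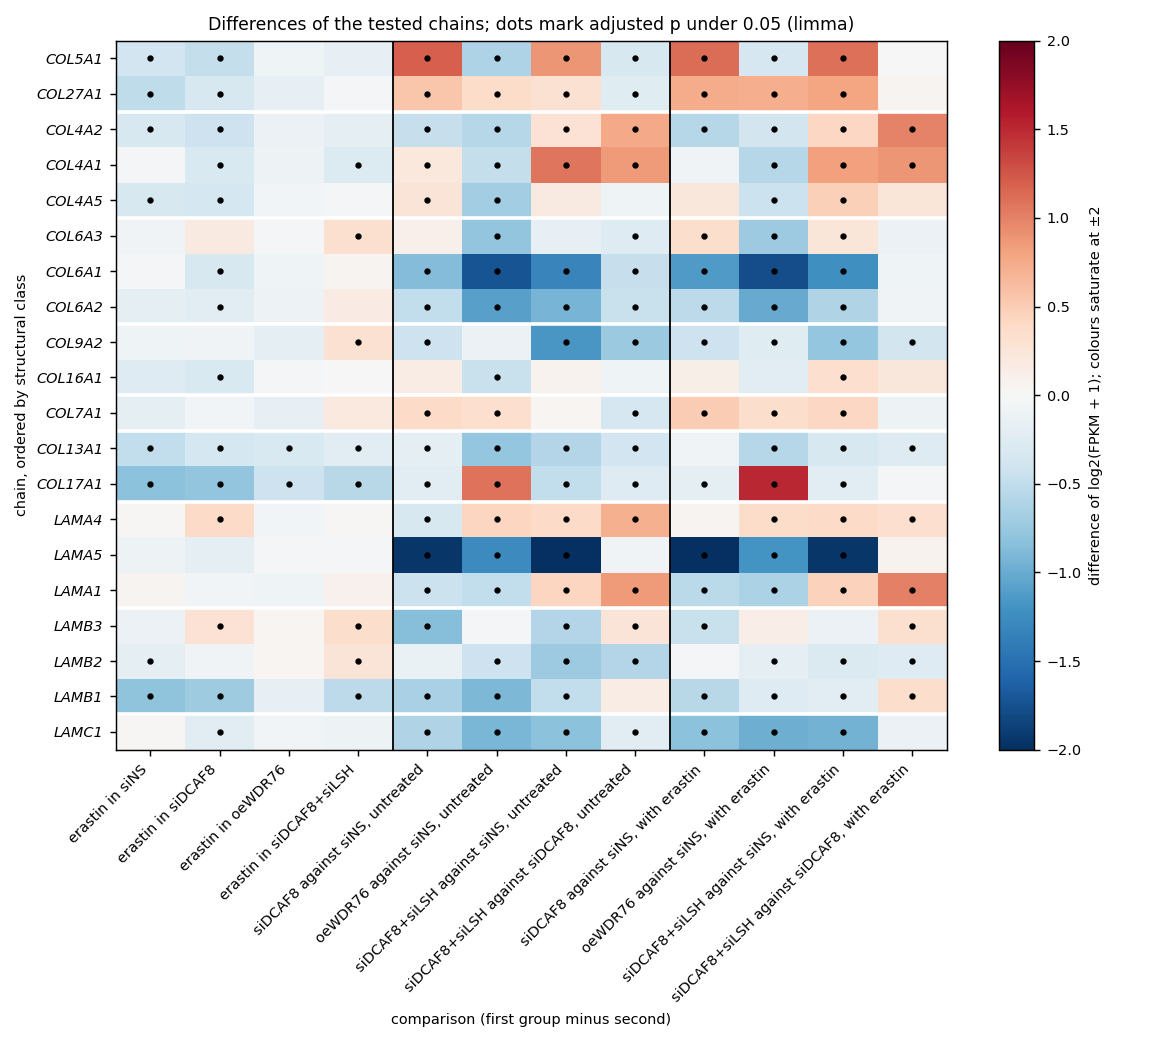
Difference of log2(FPKM + 1), first group minus second, for 20 of the 21 tested chains (rows, by structural class) in the 12 comparisons of 2 groups (columns), with colours ending at 2 either way and dots at adjusted p under 0.05. LAMA5 is lower in all 6 comparisons with siNS, and COL4A1 and COL4A2 are higher in siDCAF8+siLSH than in siDCAF8 at both treatments.

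With erastin more chains fell than rose in siNS and siDCAF8, while siDCAF8+siLSH was nearly even and oeWDR76 had only 2 calls, both falls. COL17A1 and COL13A1 fell in all genotypes and LAMB1 in all but oeWDR76. In siNS, 0 chains rose and 8 fell (all genes 15.1% and 22.4%; with the GC and length correction, 1 rose and 8 fell). Of all called genes 40.4% were higher there, 52.1% with quantile normalization and 53.7% with the GC and length correction. COL17A1 fell by 0.83 ± 0.081 (1.77-fold, adjusted p = 1.6e-06) and LAMB1 fell by 0.81 ± 0.083 (1.76-fold, adjusted p = 2.24e-06). The other 6 differences were -0.52 for COL27A1, -0.49 for COL13A1, -0.38 for COL5A1, -0.33 for COL4A5, -0.31 for COL4A2 and -0.17 for LAMB2. The COL4A5 call was lost with quantile normalization (-0.22, adjusted p = 0.113), and the LAMB2 call with median-ratio scaling (-0.14, adjusted p = 0.0953). In siDCAF8, 3 rose and 12 fell (all genes 18.3% and 22.5%), or 4 and 8 with the GC and length correction (all genes 1968 and 1945). LAMA4 rose by 0.39 and LAMB3 by 0.30. COL17A1 fell by 0.78 ± 0.081 and LAMB1 fell by 0.72 ± 0.083. COL5A1 followed at -0.48 ± 0.073, COL4A2 at -0.41, COL13A1 at -0.36, COL4A5 at -0.35 and COL27A1 at -0.33. The other 5 falls, of COL6A1, COL4A1, COL16A1, COL6A2 and LAMC1, were between -0.32 and -0.20. The COL27A1 call was lost with the GC and length correction (-0.15, adjusted p = 0.125), the COL6A1 call likewise (-0.10, adjusted p = 0.176), the COL4A5 and LAMB3 calls without siDCAF8 replicate 2 (adjusted p = 0.139 and 0.0566), and COL6A2 turned to 0.040 with that correction. COL16A1 lost its call with a pseudocount of 0.1, quantile normalization or the correction (adjusted p = 0.0513, 0.0515 and 0.499), and LAMC1 with quantile normalization (0.0543).

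In siDCAF8+siLSH erastin raised 4 chains and lowered 5 (all genes 10.6% and 9.54%), or 3 and 7 with the GC and length correction (all genes 1102 and 1302). Fitting only the groups compared gave 3 higher and 3 lower (all genes 829 and 778). COL17A1 fell by 0.56 ± 0.081 and LAMB1 fell by 0.52 ± 0.083. COL4A1 (-0.28) and COL13A1 (-0.23) were lower too, while LAMB3 rose by 0.35, COL6A3 by 0.32, COL9A2 by 0.31 and LAMB2 by 0.26. Calls of COL9A2 and COL13A1 were lost when only the groups compared were fitted (adjusted p = 0.0995 and 0.0645), that of COL9A2 also with the GC and length correction (0.17, adjusted p = 0.207), and those of COL6A3 and LAMB2 without siDCAF8+siLSH replicate 2 (adjusted p = 0.0895 and 0.115). In oeWDR76 0 chains rose and 2 fell (all genes 0.471% and 0.977%). COL17A1 fell by 0.42 ± 0.081 (adjusted p = 0.0162) and COL13A1 fell by 0.30 ± 0.065 (adjusted p = 0.0323), with 3 chains at an unadjusted p under 0.05. Neither call was kept when an oeWDR76 library of either treatment was left out (adjusted p = 0.0602 to 0.262). COL17A1 and COL13A1 were the chains called lower in all 4 genotypes, and no erastin difference of a chain reached 2-fold on the FPKM + 1 scale. COL1A1, COL1A2 and the other fibril chains under 1 FPKM were not tested for erastin. The chains' medians were -0.17 in siNS, -0.21 in siDCAF8, -0.025 in siDCAF8+siLSH and -0.093 in oeWDR76, beside -0.031, -0.018, 0.014 and 0.0056 for all genes.

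**Figure D4:**
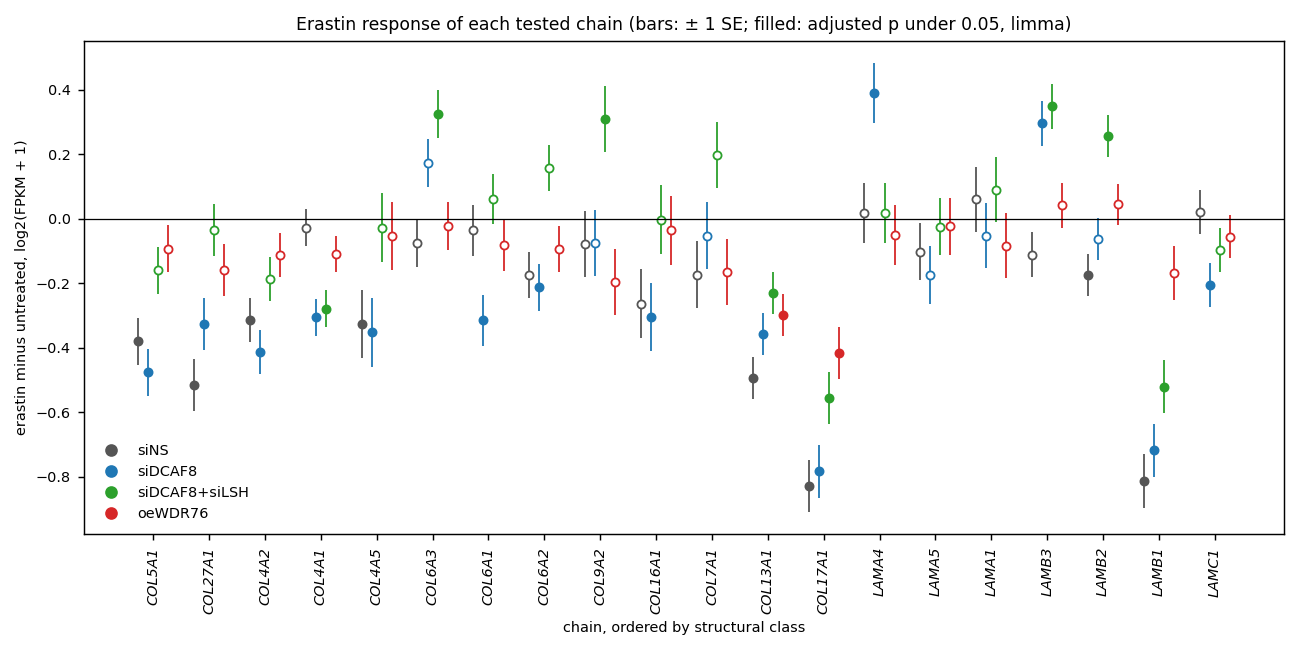
Erastin minus untreated, as a difference of log2(FPKM + 1) with bars of ± 1 standard error, for 20 of the 21 tested chains in 4 genotypes, filled at adjusted p under 0.05. COL17A1 and LAMB1 lie lowest in siNS, near -0.8, and LAMB1 in oeWDR76 lies nearer to 0 at -0.17.

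Whether the erastin response itself differed between genotypes was tested as a difference of differences. Between siDCAF8 and siNS, 1 chain was higher and 1 lower (all genes 11% and 9.84%): LAMB3 by 0.41 ± 0.099 (adjusted p = 0.00863) and COL4A1 by -0.28 ± 0.080 (adjusted p = 0.0215). With the GC and length correction 4 were higher and 2 lower (all genes 1226 and 1355). Between oeWDR76 and siNS, 3 were higher and 1 lower (all genes 9.04% and 5.11%). LAMB1 differed most, since it fell by 0.81 in siNS and changed by -0.17 in oeWDR76, a difference of 0.64 ± 0.12 (adjusted p = 0.00218). COL17A1 (0.41) and COL27A1 (0.36) were also higher. The COL27A1 call was lost with no filter, median-ratio scaling, quantile normalization, the replicate block or only the groups compared (adjusted p = 0.0523 to 0.0904), and the COL17A1 call with quantile normalization (adjusted p = 0.0529). There, quantile normalization left 1 higher and 1 lower. Between siDCAF8+siLSH and siDCAF8, 4 were higher and 2 lower (all genes 14.2% and 9.24%): COL6A1 (0.38), COL6A2 (0.37), LAMB2 (0.32) and COL5A1 (0.32) were higher, and LAMA4 (-0.37) was among the lower. With the GC and length correction 0 were higher and 1 lower, and none of these 5 chains kept its call. Over all 11260 genes the correction left 273 calls in this comparison (121 higher and 152 lower), against 2642 without it, so the loss was not particular to the chains. Of all called genes the share that was higher fell from 63.9% to 50.5% (oeWDR76) and from 60.6% to 50.0% (siDCAF8+siLSH) with median-ratio scaling.

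The genes that build, export, hold and read these chains moved in their own ways. Of 19 genes for collagen modification and folding, 16 were tested. In siDCAF8 against siNS without erastin 0 of them rose and 10 fell (all genes 31% and 29.9%), with a median of -0.30. PLOD2, the lysyl hydroxylase of collagen crosslinks, fell by 2.01 on the log2 scale from 156 ± 8.8 FPKM (SD, n = 2) to 38.0 ± 1.4. PLOD2 differed from siNS by -1.65 in oeWDR76 and -1.70 in siDCAF8+siLSH. In oeWDR76, 10 of the 16 rose and 4 fell (all genes 41.6% and 32%), with P3H3, a prolyl hydroxylase partner, at 0.62 and CRTAP, its relative, at 0.58. Against siDCAF8, siDCAF8+siLSH had 9 higher and 2 lower without erastin (all genes 26.4% and 21.7%) and 14 higher and 1 lower with it (all genes 30.4% and 19.3%), among them P4HB, a subunit of prolyl 4-hydroxylase, at 0.59. Erastin raised 2 and lowered 6 of the 16 in siNS (all genes 15.1% and 22.4%) and raised 1 and lowered 11 in siDCAF8 (all genes 18.3% and 22.5%).

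Of 22 genes of collagen export, propeptide processing and crosslinking, 14 were tested. In siDCAF8 against siNS 1 rose and 7 fell (all genes 31% and 29.9%), in oeWDR76 2 rose and 10 fell (all genes 41.6% and 32%), and in siDCAF8+siLSH 2 rose and 10 fell (all genes 35.9% and 30.9%), without erastin in each. LOX, the lysyl oxidase that crosslinks collagen, fell by 1.58 on the log2 scale in siDCAF8, from 32.9 ± 0.86 FPKM to 10.3 ± 0.54 (SD, n = 2), and SEC24D, a coat protein of collagen-carrying vesicles, fell by 1.47. LOX was higher in siDCAF8+siLSH than in siDCAF8, by 0.81 without and 1.11 with erastin. LOXL2, a related oxidase that acts on type IV collagen, fell by 1.28 in siDCAF8+siLSH against siNS. TGM2, a transglutaminase that crosslinks matrix, fell by 1.10 in oeWDR76 and rose with erastin by 0.49 in siNS and 0.64 in siDCAF8+siLSH.

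Of 10 basement membrane partners, 7 were tested. Without erastin 1 rose and 2 fell in siDCAF8 against siNS (all genes 31% and 29.9%, so the falls are near the background), 0 rose and 5 fell in oeWDR76 (all genes 41.6% and 32%), and 1 rose and 4 fell in siDCAF8+siLSH (all genes 35.9% and 30.9%). NID1, the nidogen that ties laminin to type IV collagen, was lower in each, at -0.95 in siDCAF8, -0.80 in oeWDR76 and -0.73 in siDCAF8+siLSH. HSPG2, which encodes perlecan, fell by 1.94 in oeWDR76, from 21.1 ± 1.4 FPKM to 4.77 ± 0.04 (SD, n = 2), and SPARC, a collagen-binding protein, fell by 1.02. NTN4, a netrin that loosens the laminin network, rose by 0.91 in siDCAF8.

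Of 15 collagen and laminin receptors, 11 were tested. Without erastin 1 rose and 6 fell in siDCAF8 against siNS, 0 rose and 9 fell in oeWDR76, and 0 rose and 8 fell in siDCAF8+siLSH (all genes 31% and 29.9%, 41.6% and 32%, and 35.9% and 30.9%), with medians of -0.34, -0.81 and -0.55. ITGA2, the collagen-binding integrin chain, fell from 191 ± 7.7 FPKM in siNS to 61.7 ± 0.91 in siDCAF8, 68.2 ± 8.9 in siDCAF8+siLSH and 36.5 ± 1.6 in oeWDR76 (SD, n = 2), differences of -1.62, -1.48 and -2.36 on the log2 scale. ITGA3, the laminin-332 receptor chain, fell by 1.11 in siDCAF8+siLSH, and DDR1, a collagen-activated kinase, fell by 1.28 in siDCAF8. DDR2, the fibrillar collagen kinase, fell with erastin by 1.15 in siNS. Its erastin response differed by 0.98 between siDCAF8 and siNS and by 0.94 between oeWDR76 and siNS. The lists of partner genes were written with earlier results of these libraries known, so their counts describe these libraries and carry no test. Calls of partner genes are those of the main fit, and none was checked under the correction for GC content and length.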

How the data were processed

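Total RNA of HT-1080 cells was extracted with Trizol, amplified with Smart-seq v4, made into libraries with a NEBNext Ultra DNA kit and sequenced on a BGISEQ500, per the labels' protocols. The authors deposited FPKM per gene, rounded to 2 decimals, and the submitters' processing notes name StringTie and GRCh38. For the StringTie version, aligner, annotation release and strand setting, the sources used here give nothing. The table holds no counts, so depth is unknown, and precision is that of 2 libraries per group (median SD 0.046 to 0.068 log2). The treatment text stands in every label, so group names decided which libraries received erastin.

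Computed here: log2(FPKM + 1) of 11260 genes with mean FPKM of at least 1 was fitted with limma 3.58.1 (R 4.3.3) as 8 group means with a mean-variance trend, with 8 residual degrees of freedom and 8.57 prior ones. The 15 contrasts were two-sided and adjusted by Benjamini-Hochberg within each. Python 3.11.15, pandas 2.3.3, numpy 2.4.6 and matplotlib 3.10.9 prepared tables and plots. On simulated data for erastin in siNS over 11260 genes, 94% of genes moved by 0.5 log2 and 99.7% moved by 1 were recovered, with 4.76% and 5.14% of calls false. The simulation moved 200 genes and drew independent normal noise with the fitted spread. It checks that the code runs as meant, and holds no library-wide shift, GC trend or spread between cultures. The measured comparison called 4223 genes. Values per library are given for chains with a mean of at least 5 FPKM, or a called difference of at least 1 log2 between 2 groups. Statistics are given for at most 10 chains per comparison, and for at most 3 partner genes per list. Alternatives were a pseudocount of 0.1, no filter, median-ratio scaling, quantile normalization, a replicate block, fitting only the groups compared, correction for GC content and transcript length (GC known for 11086 genes and all 21 tested chains), and leaving out each library. Promoter sequences are from RefSeq (GRCh38.p14), where 41 chains had an entry. Values of 1 tested chain, which stands in the counts and medians, are not reported here. Exon overlaps were read from GENCODE 29. Chains and lists were chosen with earlier results of these data known.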

Additional observations from a re-analysis of the deposited data

Results flagged for a closer look

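Of the 20 tested chains whose values are reported, 10 had an erastin response that differed between genotypes by the test of the difference itself (limma, adjusted over 11260 genes). Between siDCAF8 and siNS these were LAMB3 at 0.41 (adjusted p = 0.00863) and COL4A1 at -0.28 (adjusted p = 0.0215). LAMB3 changed by -0.11 with erastin in siNS and by 0.30 in siDCAF8. The COL4A1 call was lost without replicate 1 of siNS, siNS/Erastin, siDCAF8 or siDCAF8/Erastin (adjusted p = 0.0638 to 0.0862), whereas the LAMB3 call was kept in every alternative run.

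Between oeWDR76 and siNS those reported were LAMB1 at 0.64 (adjusted p = 0.00218), COL17A1 at 0.41 (adjusted p = 0.026) and COL27A1 at 0.36 (adjusted p = 0.0463). LAMB1 and COL17A1 fell in siNS and had smaller differences in oeWDR76, -0.17 and -0.42. The COL27A1 call was lost with no filter, median-ratio scaling, quantile normalization, the replicate block or only the groups compared (adjusted p = 0.0523 to 0.0904), and the COL17A1 call with quantile normalization (0.0529). Without single libraries of siNS or oeWDR76 these 2 calls were lost too (adjusted p = 0.0555 to 0.175), and the LAMB1 call was kept in every alternative run.

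Between siDCAF8+siLSH and siDCAF8 those reported were COL6A1 at 0.38 (adjusted p = 0.0238), COL6A2 at 0.37 (adjusted p = 0.0184), LAMA4 at -0.37 (adjusted p = 0.0497), LAMB2 at 0.32 (adjusted p = 0.0209) and COL5A1 at 0.32 (adjusted p = 0.0367). With the correction for GC content and length none of these 5 kept its call, and COL6A2 stood at -0.032. Over all genes the same correction left 273 calls in this comparison, against 2642 without it.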

How the results depend on the processing

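Of 180 calls of a chain, 144 were kept in each of the 7 alternatives that used all 16 libraries, and 128 also when each library was left out in turn. The count of called chains moved by over 1.5 times in few of them: erastin in oeWDR76 gave 1 with no filter against 2; the difference of responses between siDCAF8 and siNS gave 4 with no filter and 6 with the GC and length correction against 2; that between oeWDR76 and siNS gave 2 with quantile normalization against 4; and that between siDCAF8+siLSH and siDCAF8 gave 2 with no filter, 3 with only the groups compared and 1 with the GC and length correction against 6. That correction turned 3 differences: COL6A2 with erastin in siDCAF8 to 0.0403, COL27A1 in siDCAF8+siLSH against siDCAF8 without erastin to 0.0167, and the COL6A2 difference of responses between siDCAF8+siLSH and siDCAF8 to -0.0321. The cause was not tested. In the difference of responses between siDCAF8+siLSH and siDCAF8, the correction left 273 calls over all genes, against 2642 in the main fit. With no filter all 55 chains with values entered, and siDCAF8+siLSH against siNS with erastin had 18 higher and 9 lower (4710 and 3203 of all 17552 genes).

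Leaving out each library gave counts of 6 to 9 for erastin in siNS, 10 to 16 in siDCAF8, 0 to 3 in oeWDR76 and 6 to 9 in siDCAF8+siLSH. Against siNS without erastin they were 14 to 17 in siDCAF8, 18 to 19 in oeWDR76 and 17 to 18 in siDCAF8+siLSH, and with erastin 13 to 15, 17 to 19 and 17 to 20. Against siDCAF8, siDCAF8+siLSH had 12 to 17 without and 8 to 10 with erastin. The differences of responses had 1 to 4 (siDCAF8), 2 to 5 (oeWDR76) and 1 to 8 (siDCAF8+siLSH). Erastin in oeWDR76 dropped from 2 calls to 0 without any one oeWDR76 library and to 1 without either untreated siNS library. The siDCAF8 difference of responses gave 1 without siNS, siNS/Erastin or siDCAF8/Erastin replicate 1 and 4 without either untreated siDCAF8+siLSH library. The oeWDR76 difference gave 2 without siNS replicate 1, siNS/Erastin replicate 2, oeWDR76 replicate 1 or oeWDR76/Erastin replicate 2. The siDCAF8+siLSH difference gave 1 without siDCAF8 replicate 1 or the second untreated siDCAF8+siLSH library, 2 without siDCAF8+siLSH/Erastin replicate 2, and 3 without either siDCAF8/Erastin library.

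Over 28 pairs of groups the correlation of the deviations of libraries with the same replicate number ran from -0.208 to 0.389, above 0.1 in 7 and below -0.1 in 7, so the numbers were not taken to pair the libraries. With the replicate number as a block, 3 calls were lost, COL17A1 in siDCAF8 against siNS with erastin (adjusted p = 0.0551), COL27A1 in the oeWDR76 difference of responses (0.0523) and LAMA4 in the siDCAF8+siLSH difference (0.0553). Quantile normalization and median-ratio scaling moved the median of all genes by over 0.1 log2 in oeWDR76 against siNS with erastin, from 0.11 to -0.0076 and 0.0090. Without read counts, how depth limits the low chains cannot be given.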

Other observations

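Among the chains under the minimum for testing, type I collagen differed between libraries of the same group, most in siNS/Erastin. COL1A1, the main chain of bone and skin collagen, was at 0.77 and 1.20 FPKM in the siNS libraries and at 0.53 and 1.45 in siNS/Erastin. COL1A2, its partner chain, was at 0.21 and 0.56 FPKM in siNS and at 0.24 and 1.24 in siNS/Erastin. In both groups the second library had more of both chains. Smaller gaps in the same direction stood in siDCAF8 (COL1A1 at 1.30 and 1.34 FPKM, COL1A2 at 0.22 and 0.31). The second library also had more of both chains in siDCAF8/Erastin and siDCAF8+siLSH/Erastin. In oeWDR76 the first library had more of both, with COL1A2 at 0.33 and 0 FPKM. The number of reads behind these levels is unknown.

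Other chains under the minimum were listed at levels that differed by genotype, given as values with no test. COL18A1, the basement membrane chain that yields endostatin, was at 0.28 to 0.36 FPKM in the 4 siNS libraries and at 0.71 to 1.01 in the 4 oeWDR76 libraries. It was at 0.46 to 0.55 FPKM in siDCAF8 and 0.55 to 0.81 in siDCAF8+siLSH, both treatments included. LAMA3 was at 0.12 to 0.38 FPKM in the siNS libraries, 0.21 to 0.36 in siDCAF8, 0.45 to 0.61 in siDCAF8+siLSH and 0.66 to 1.0 in oeWDR76. COL8A1, a network-forming chain of vessels and the cornea, was at 0.38 to 0.71 FPKM in siNS and 0.19 to 0.37 in oeWDR76. It was at 0.23 to 0.86 FPKM in siDCAF8 and 0.47 to 0.75 in siDCAF8+siLSH. LAMA2, the alpha chain of muscle laminin, stayed at or below 0.11 FPKM outside siDCAF8+siLSH, where it was at 0.16 to 0.30. These chains were chosen after their values were seen.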
